A study of Mus musculus with 8 samples.

Results

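Ptgs2, Alox5 and S1pr3, which encode 2 enzymes of eicosanoid synthesis and a receptor for sphingosine-1-phosphate, were examined for their content of 5-hydroxymethylcytosine (5hmC) in mouse myoblasts labelled as knockout or control for Psat1, a gene of serine biosynthesis. These 3 genes were taken by name from 273 genes for which a 5hmC signal was available, and all 3 belong to the 220 genes that the authors marked UP_Psat1cKO (called UP here), the other 53 being marked DOWN_Psat1cKO, on a criterion that is not stated. They were chosen by an earlier look at these same 5hmC values, so the levels and ratios below are descriptions. The study profiled primary myoblasts from hindlimb muscle, grown in medium with horse serum and bFGF, by immunoprecipitation of 5hmC from sonicated genomic DNA and sequencing. Psat1KO myoblasts carried 2 floxed Psat1 alleles and a heterozygous Cre allele at Pax7 (Pax7 CRE+/-;Psat1fl/fl). CTRL myoblasts carried the same floxed alleles without Cre (Pax7 +/+; Psat1fl/fl). Pax7 is expressed in muscle stem cells, so Cre is driven in that lineage. Only Psat1KO cells carry the altered Pax7 allele, so its part and that of Psat1 cannot be told apart, and Psat1 itself was not analysed here. Each genotype had 2 immunoprecipitated libraries, and the labels do not say whether they came from separate animals. Each table held replicate 1 or replicate 2 of both genotypes, called set 1 and set 2 here.

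Eicosanoids are lipid mediators made from arachidonic acid, which cytosolic phospholipase A2 (Pla2g4a) releases from membranes. Ptgs2 is the inducible cyclooxygenase that starts prostaglandin synthesis, and Alox5 is the lipoxygenase that starts leukotriene synthesis, best known from leukocytes. S1pr3 is a G protein-coupled receptor for sphingosine-1-phosphate, a lipid signal that acts on muscle stem cells. 5hmC is formed when TET enzymes oxidise methylated cytosine, which in mammals lies mostly in CpG dinucleotides, and in many cell types it is found in the bodies and distal regulatory elements of active genes.

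The promoters are shown because CpG dinucleotides, in capitals, are where the modification can be placed, and the members differ in how many they have. Each sequence is the 250 bases before the annotated gene start (RefSeq, GRCm38.p6), written 5′ to 3′ on the strand of the gene.
Ptgs2: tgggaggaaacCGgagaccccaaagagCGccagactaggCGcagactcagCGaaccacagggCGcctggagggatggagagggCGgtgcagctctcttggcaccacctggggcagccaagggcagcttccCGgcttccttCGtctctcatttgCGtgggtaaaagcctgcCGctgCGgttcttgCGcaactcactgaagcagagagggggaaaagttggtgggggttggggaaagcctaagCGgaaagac
Alox5: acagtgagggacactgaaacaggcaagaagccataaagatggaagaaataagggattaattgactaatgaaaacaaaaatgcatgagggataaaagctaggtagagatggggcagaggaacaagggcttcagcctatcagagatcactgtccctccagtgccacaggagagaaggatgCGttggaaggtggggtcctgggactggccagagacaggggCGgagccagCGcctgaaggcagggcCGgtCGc
S1pr3: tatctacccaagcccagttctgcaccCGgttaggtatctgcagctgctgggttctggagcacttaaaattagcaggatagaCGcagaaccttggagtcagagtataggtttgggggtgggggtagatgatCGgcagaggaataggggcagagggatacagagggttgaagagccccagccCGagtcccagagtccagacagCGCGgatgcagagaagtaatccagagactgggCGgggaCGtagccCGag
The Ptgs2 promoter lies at chr1:150099781-150100030 on the plus strand and holds 13 CpG. That of Alox5 lies at chr6:116461179-116461428 on the minus strand and holds 5, which stand in its last part, next to the gene. That of S1pr3 lies at chr13:51408368-51408617 on the plus strand and holds 9. Among 27025 mouse promoters of the same length, 31.9% had at least as many CpG as Ptgs2, 40.7% as many as S1pr3 and 55.5% as many as Alox5. The median was 6 CpG over all promoters and 10 over the 151 UP genes with an entry. The promoters were not tied to particular bins of the signal, because the window that the bins cover is not given in the sources used here.

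Each gene carried a signal in consecutive, equally numbered bins. Ptgs2 (transcript NM_011198; chromosome 1, 150100031 to 150108234, plus strand, GRCm38) is 8204 bases long, S1pr3 (NM_010101; chromosome 13, 51408618 to 51422797, plus strand) 14180 bases and Alox5 (NM_009662; chromosome 6, 116410071 to 116461178, minus strand) 51108 bases. Neighbouring bins resembled each other more in short genes: over the UP genes in set 2, the correlation of a bin with the next had a median of 0.43 in the 55 shortest genes, up to 10.4 kb, and 0.14 in the 55 longest, from 76.01 kb (Spearman rho with gene length of -0.56 across 220 genes, which share libraries). It was 0.56 at Ptgs2, 0.51 at S1pr3 and 0.25 at Alox5. Low values were multiples of a step, taken as 1 read, which implied 30558620 and 69791406 reads in the Psat1KO libraries and 22632439 and 69763939 in the CTRL libraries (sets 1 and 2). The average bin of the UP genes was covered by 0.720 and 1.53 reads in Psat1KO and by 0.539 and 1.61 reads in CTRL, so values of set 1 carry more counting error. The tables hold no expression. Of 5 myoblast markers they list Pax7 and Myf5, and of 5 leukocyte markers 0, and a DNA signal cannot check the cell type.

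The densest part of the Ptgs2 signal was a cluster of bins near the end of the window, in both genotypes and both sets. Bins 84 to 96, 12.9% of all bins, held 52.8% and 42.3% of the gene's signal in Psat1KO (sets 1 and 2) and 66.7% and 54.7% in CTRL. A smaller share lay in bins 1 to 16, with 22.5% and 25.7% in Psat1KO and 16.7% and 21.4% in CTRL. The 67 bins between, 66.3% of the window, held only 19.1% and 28.2% in Psat1KO and 16.7% and 18.9% in CTRL. Coverage peaked at 12 reads, in bin 85, in Psat1KO replicate 2, and at 13.7 reads, in bin 88, in CTRL replicate 2. Psat1KO replicate 1 had its highest value of 6 reads in bin 4, outside the cluster, whereas CTRL replicate 1 had its highest value of 3 reads in bin 89, inside it.

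S1pr3 had 3 narrow clusters, each with more of the signal than its share of the bins in the 4 libraries. Bins 7 to 10, 3.96% of the window, held 14.1% and 17.1% of its signal in Psat1KO and 21.1% and 19.7% in CTRL. The highest bin of the gene lay there in every library, at bin 9 in both Psat1KO libraries (8 and 15.3 reads) and at bin 8 in both CTRL libraries (5 and 21.1 reads). Bins 26 to 28 held 7.94% and 6.85% in Psat1KO and 6.18% and 11.7% in CTRL, where they make up 2.97% of the bins. These shares rest on 9 and 15 read positions in Psat1KO and 3 and 23 in CTRL. In CTRL of set 1 nearly all of it lay in 1 bin (2.98 reads), too little to show that this cluster recurred there. Bins 58 to 63, 5.94% of the bins, held 12.4% and 18.9% in Psat1KO and 16.6% and 12.7% in CTRL. Alox5 had no narrow cluster that held its highest bin in every library. Its densest stretch, bins 75 to 84, held 19.7% and 21.7% in Psat1KO and 33.5% and 24.5% in CTRL, for 9.90% of the bins, and its highest bin differed in each library (85 and 76 in Psat1KO, 59 and 77 in CTRL). These stretches were delimited after the profiles were seen.

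**Figure D1:**
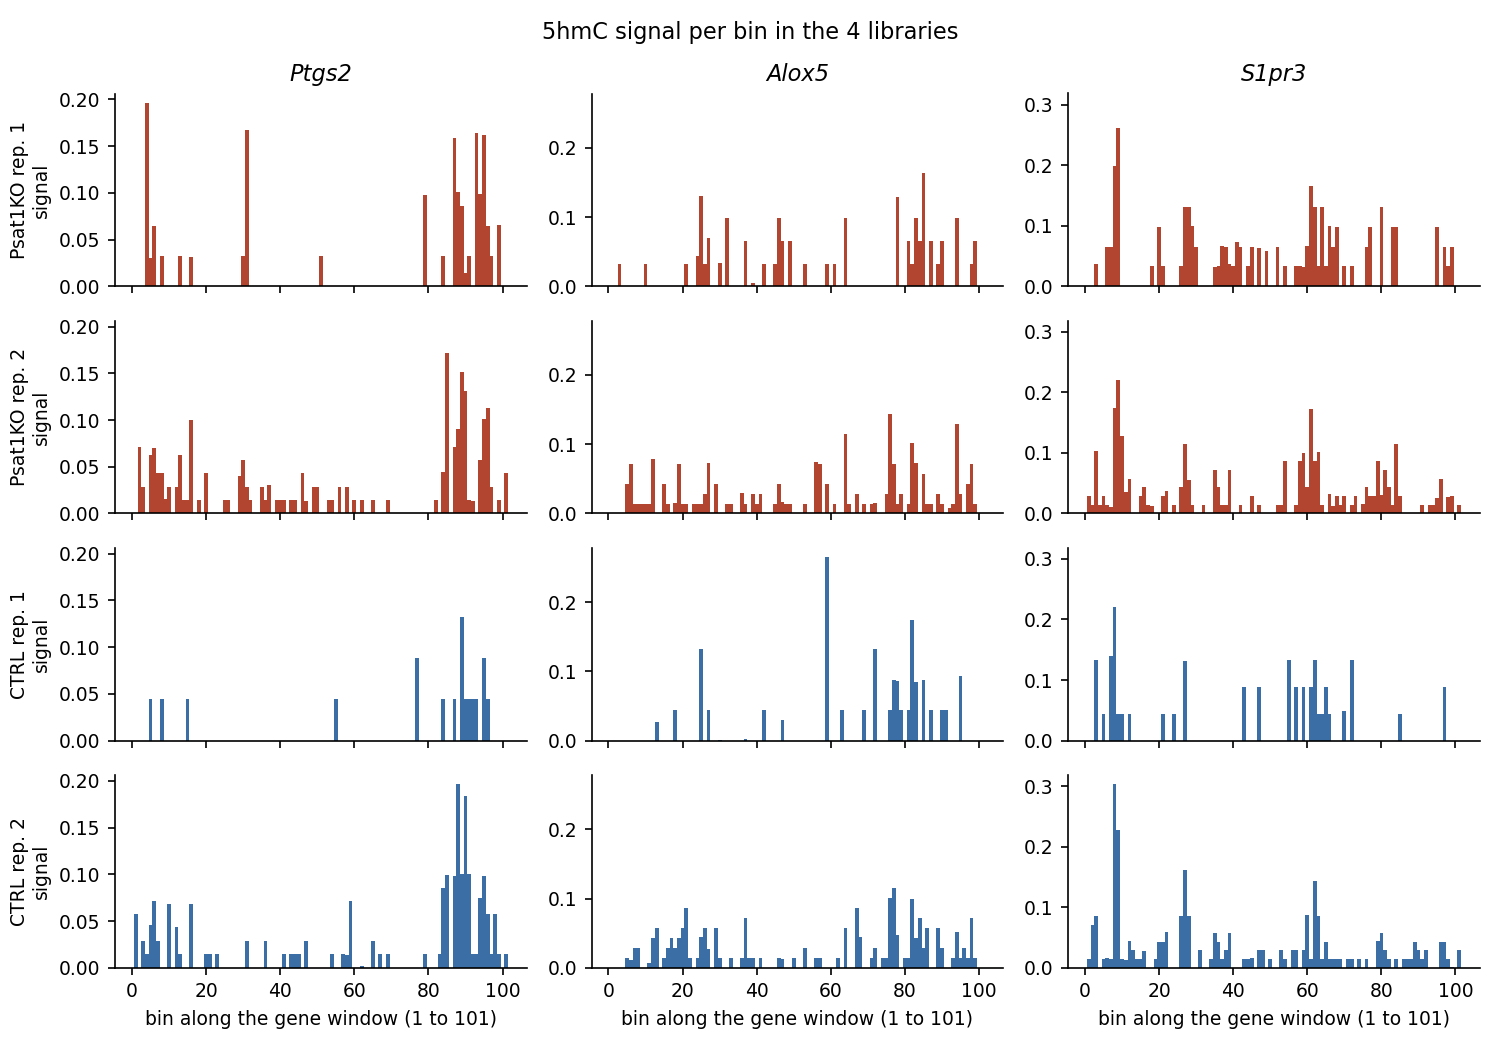
Signal per bin (deposited units, y axis) over the numbered bins of the window (x axis) of Ptgs2, Alox5 and S1pr3, with a row for each library, Psat1KO above CTRL; the y axis is shared within a gene. Ptgs2 shows the cluster in bins 84 to 96 and S1pr3 the peak in bins 7 to 10 in all 4 libraries, and set 1 shows more empty bins.

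Because a peak drawn from the same values that define it cannot check itself, the 10 highest bins of each gene were taken from set 2, with both genotypes summed, and read in the libraries of set 1. An even spread would put 9.90% of the signal in them. For Ptgs2 they held 45.1% in Psat1KO and 44.4% in CTRL of set 1, against medians over the UP genes of 36.3% in Psat1KO and 28.5% in CTRL. This placed Ptgs2 at rank 48 and rank 23 of 220, and 6 of its 10 bins were also among the 10 highest of set 1. The CTRL share rests on 8 read positions inside these bins and 10 outside, the Psat1KO share on 24 and 29. Ptgs2 is also among the shortest genes, where neighbouring bins resemble each other more, and the ranks do not allow for gene length. For S1pr3 the shares were 29.3% in Psat1KO, below the median UP gene, and 39.4% in CTRL, above it (ranks 161 and 42), with 6 of 10 bins shared. They rest on 33 read positions inside and 80 outside in Psat1KO, and on 19 and 29 in CTRL. For Alox5 the shares were 18.2% in Psat1KO and 23.1% in CTRL, ranks 211 and 156, with 2 of 10 bins shared. These rest on 11 and 50 read positions in Psat1KO and on 9 and 29 in CTRL. All 3 genes exceeded the even share in both set 1 libraries, but so did nearly all UP genes. The 5th percentile of the UP genes was 19.1% in Psat1KO and 12.9% in CTRL of set 1. Alox5 lay below that percentile in Psat1KO. Only Ptgs2 of the 3 lay above the median UP gene in both. How much of this coverage an input would share was not tested, as values of the 4 input libraries were not used here.

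**Figure D2:**
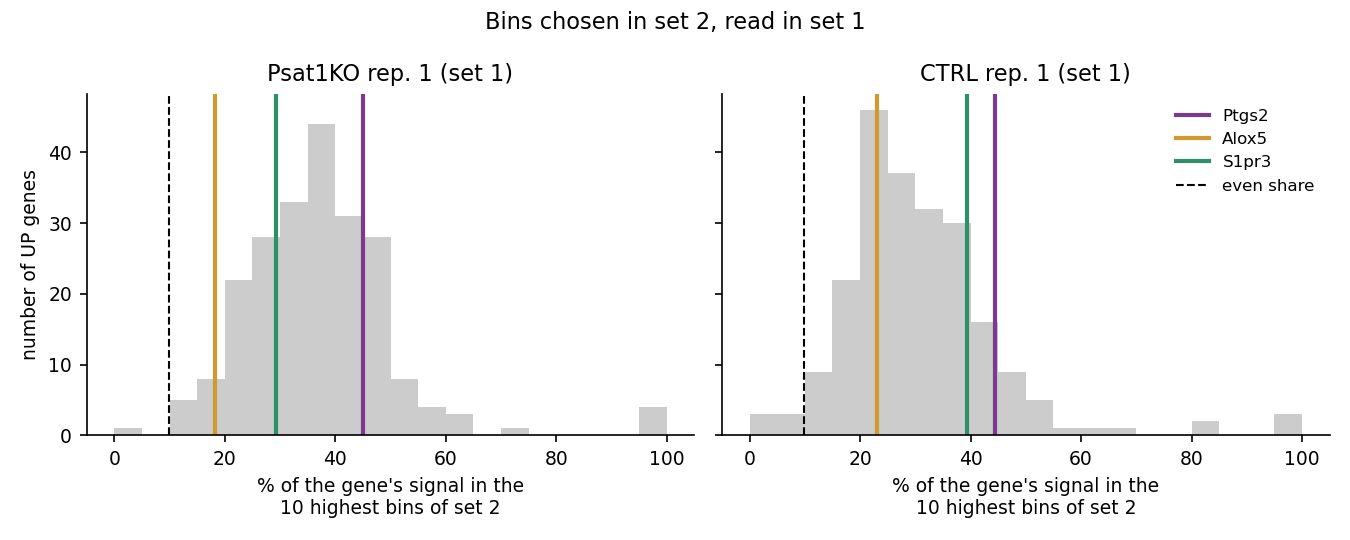
Percentage of a gene's signal (x axis) in set 1 that fell in the 10 bins highest in set 2, as histograms over the 220 UP genes (y axis, number of genes) for Psat1KO and CTRL. Solid lines mark the 3 genes and the dashed line the even share of 9.90%; Ptgs2 lies to the right of Alox5 in both panels.

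Single libraries were also compared. Over the bins, which share libraries and mappability, the Ptgs2 profiles of Psat1KO and CTRL correlated with an r of 0.39 in set 1 and 0.70 in set 2, those of S1pr3 with 0.37 and 0.66, and those of Alox5 with 0.33 and 0.54. The medians over the UP genes were 0.28 in set 1 and 0.61 in set 2. Profiles of the same genotype in the 2 sets correlated with 0.35 in Psat1KO and 0.40 in CTRL at Ptgs2, 0.55 and 0.52 at S1pr3, and 0.29 and 0.22 at Alox5, against UP medians of 0.48 in Psat1KO and 0.36 in CTRL. The DOWN genes, none of which is treated here, had a median profile correlation between the summed sets of 0.02, against 0.57 for the UP genes, so levels were ranked among the UP genes only.

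Levels are given as the average signal over all bins of a gene. Ptgs2 had a level of 0.0171 and 0.0225 in Psat1KO (sets 1 and 2), against 0.00788 and 0.0203 in CTRL. The CTRL library of set 1 stood far below the other 3, and the groups overlapped. In rank among the 220 UP genes, from the highest, Ptgs2 was at 163 and 100 in Psat1KO and at 210 and 121 in CTRL. The means were 0.0198 ± 0.00377 in Psat1KO and 0.0141 ± 0.00881 in CTRL (SD, n = 2 each). The ratio of Psat1KO to CTRL was 2.18 in set 1 and 1.10 in set 2. The set 1 ratio rests on 53 covered read positions in Psat1KO and 18 in CTRL, and the set 2 ratio on 158 and 143. With exact binomial 95% intervals, the ratios ranged from 1.26 to 3.96 in set 1 and from 0.875 to 1.395 in set 2. These intervals cover counting error only and are too narrow where a read spans neighbouring bins.

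The ratio at Ptgs2 varied between stretches of the window, on few reads in set 1. In the densest cluster, bins 84 to 96, the signal was 0.0703 and 0.0738 in Psat1KO, against 0.0408 and 0.0865 in CTRL, which gave ratios of 1.72 in set 1 and 0.854 in set 2. In the sparse bins 17 to 83 the signal was 0.00494 and 0.00957 in Psat1KO, against 0.00198 and 0.00581 in CTRL, with ratios of 2.50 and 1.65. In bins 1 to 16 the ratios were 2.93 and 1.32. The set 1 ratios of these 2 stretches rest on only 3 CTRL read positions each. Psat1KO had 10 in bins 17 to 83 and 12 in bins 1 to 16. In set 2, bins 17 to 83 had 45 read positions in Psat1KO against 27 in CTRL. From bin 97 to the end, also outside the densest cluster, the set 2 ratio was 0.854, on 6 read positions in Psat1KO against 7 in CTRL. No interval was computed for a stretch, so differences between stretches of Ptgs2 in either set may be counting error. The set 2 interval of the whole gene included 1, so no part of the window is named as the source of its ratio.

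Alox5 had a level of 0.0196 and 0.0218 in Psat1KO, against 0.0167 and 0.0210 in CTRL. The 2 libraries of set 2 were close to each other, the CTRL library of set 1 was again the lowest, and the groups overlapped. Of the UP genes, 36.4% and 50.9% had a lower level than Alox5 in Psat1KO and 23.2% and 54.1% in CTRL. The means were 0.0207 ± 0.00154 in Psat1KO and 0.0189 ± 0.00303 in CTRL (SD, n = 2 each). The ratio was 1.17 in set 1 (95% interval 0.780 to 1.83, from 61 read positions in Psat1KO and 38 in CTRL) and 1.04 in set 2 (0.825 to 1.31, from 154 and 148). In its densest stretch, bins 75 to 84, the ratios were below 1, at 0.690 in set 1 and 0.916 in set 2. They rest on 12 read positions in Psat1KO against 13 in CTRL in set 1, and on 33 against 36 in set 2. The ratios were 1.17 and 1.33 in bins 31 to 74, and 1.67 and 1.14 from bin 85 to the end. In bins 5 to 30 the sets went opposite ways, with ratios of 1.51 and 0.866. As no interval was computed for a stretch, differences between these stretches may be counting error.

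S1pr3 had the highest levels of the 3 genes in every library, with 0.0367 and 0.0308 in Psat1KO, against 0.0211 and 0.0281 in CTRL. Both Psat1KO libraries lay above both CTRL libraries. It ranked 21 and 22 among UP genes in Psat1KO and 126 and 34 in CTRL. The means were 0.0338 ± 0.00420 in Psat1KO and 0.0246 ± 0.00492 in CTRL (SD, n = 2 each). The ratio was 1.74 in set 1 (95% interval 1.23 to 2.50, from 113 read positions in Psat1KO and 48 in CTRL) and 1.10 in set 2 (0.899 to 1.34, from 217 and 198). At the peak in bins 7 to 10 the genotypes were closer, with a signal of 0.131 and 0.133 in Psat1KO, against 0.112 and 0.140 in CTRL, and ratios of 1.17 and 0.955. Bins 26 to 28 had ratios of 2.24 (9 read positions in Psat1KO against 3 in CTRL) and 0.641 (15 against 23), in opposite directions. Bins 58 to 63 had ratios of 1.304 (14 read positions against 8) and 1.64 (41 against 25). The bins from 64 to the end had 2.54 (38 against 11) and 1.41 (61 against 43). Both stretches thus had the higher Psat1KO signal in both sets. The remaining stretches went opposite ways in the sets. Their ratios were 0.580 and 1.01 in bins 1 to 6, and 1.24 and 0.897 in bins 11 to 25. Bins 29 to 57 had 2.32 and 0.932. As no interval was computed for a stretch, differences between these stretches of S1pr3 may be counting error.

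**Figure D3:**
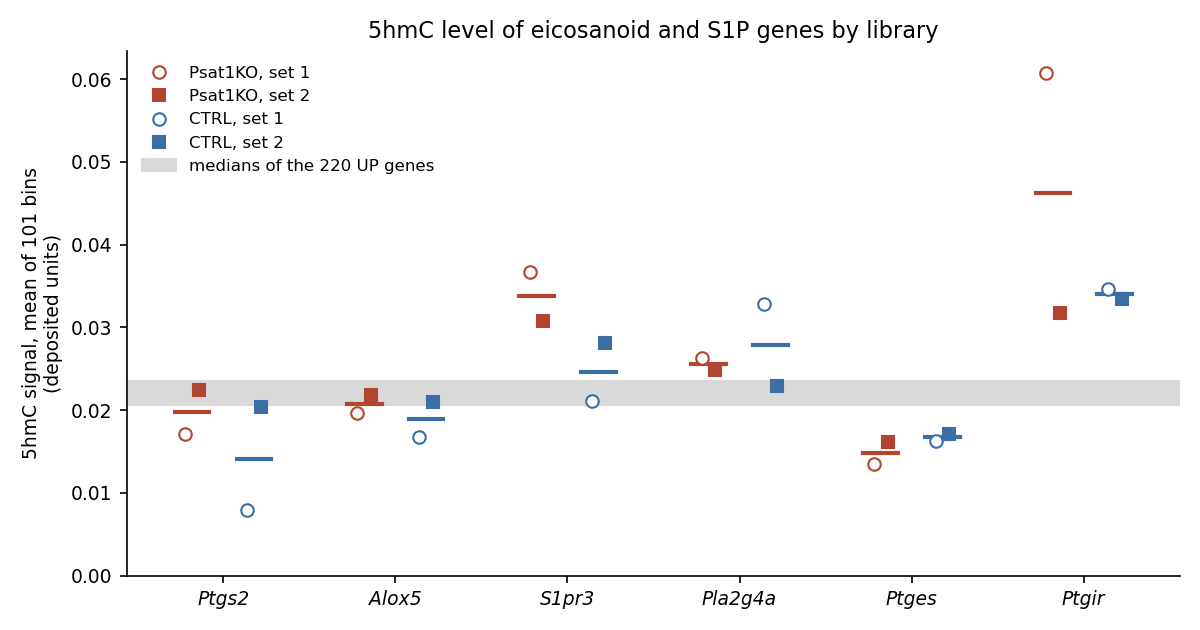
5hmC level (y axis, mean over bins in deposited units) of 6 genes in the Psat1KO (red) and CTRL (blue) libraries; open circles are set 1, filled squares set 2, bars the mean of 2 libraries, and the grey band spans the 4 library medians of the UP genes. S1pr3 has both Psat1KO values above both CTRL values, and the set 1 CTRL value of Ptgs2, 0.00788, is the lowest point.

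Of the 3 genes, 1 (S1pr3) had both Psat1KO levels above both CTRL levels, as did 37 of the 220 UP genes (16.8%), while 28 (12.7%) had both below. All 3 were higher in Psat1KO within both sets, as were 66 UP genes (30%), but their choice followed these ratios and nothing is read from the count. The median ratio over the UP genes was 0.956 in set 1 and 1.04 in set 2. From the highest ratio, Ptgs2 ranked 3 in set 1 and 70 in set 2, S1pr3 8 and 73, and Alox5 59 and 111. Limma on log2(level + 0.005) over all 273 genes called 0 genes (0%) at a Benjamini-Hochberg adjusted p under 0.05, and 8 had an unadjusted p under 0.05, with a smallest adjusted p of 0.953.

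The CTRL library of set 1 had the lowest level of the 4 libraries at each of the 3 genes, as it did at 52 of the 220 UP genes (23.6%). Its Ptgs2 signal was 0.348 times the median UP gene of that library, against 0.986 times in the CTRL library of set 2, and 0.731 and 1.03 times in the Psat1KO libraries of sets 1 and 2. The level in set 2 was 2.58 times that in set 1 in CTRL, the 4th largest such change among the UP genes, and 1.31 times in Psat1KO, at rank 21. For S1pr3 it was 1.33 times in CTRL and 0.839 times in Psat1KO. Without CTRL replicate 1, which leaves Psat1KO against the single CTRL library of set 2, the log2 ratio changed from 0.63 to -0.05 at Ptgs2, from 0.14 to -0.02 at Alox5 and from 0.47 to 0.26 at S1pr3. That library was also the shallowest, and the part of depth in these values was not tested.

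**Figure D4:**
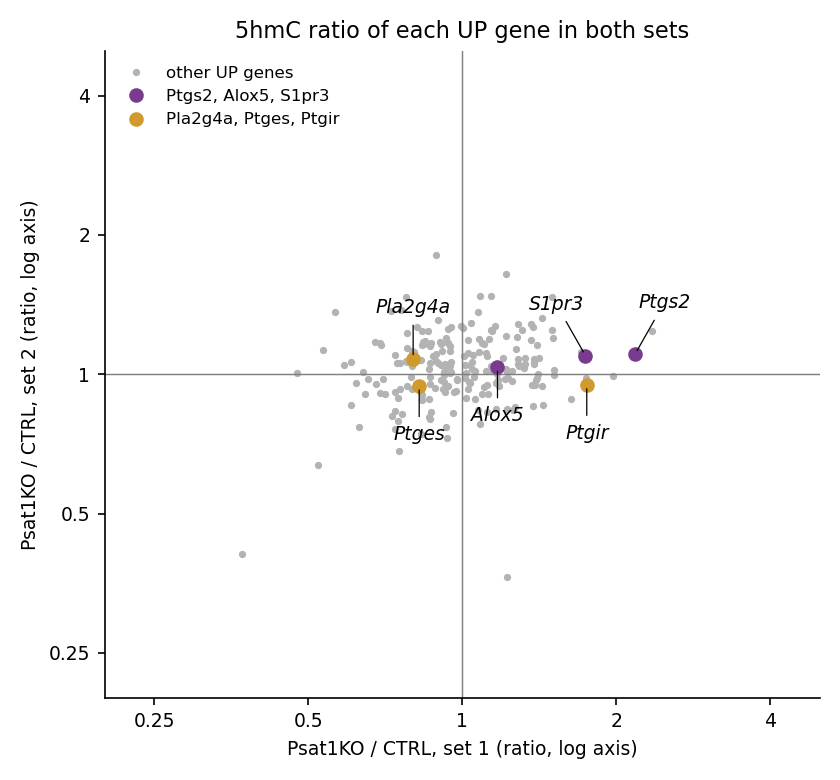
Ratio of Psat1KO to CTRL 5hmC level in set 1 (x axis) and set 2 (y axis), both on log axes, for 217 of the 220 UP genes, of which 6 are named; the other 3 lie outside the axes. Ptgs2 and S1pr3 lie far right at 2.18 and 1.74 in set 1 and near 1 in set 2.

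The rest of the pathway was counted from lists of genes. Of 22 eicosanoid synthesis genes the tables held 4, namely Ptgs2, Alox5, Pla2g4a and Ptges, all marked UP. Of 14 eicosanoid receptor genes they held Ptgir, also marked UP, of 19 sphingosine-1-phosphate genes only S1pr3, and of 12 genes of lysophosphatidic acid, platelet-activating factor and endocannabinoid signalling 0. Genes outside the tables were not analysed here. None of the 6 passed the limma test, which called 0 of all 273 genes. Pla2g4a, Ptges and Ptgir did not have a higher Psat1KO level within both sets. Only 66 of the 220 UP genes (30%) did, so nothing is read from this count.

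Pla2g4a, the phospholipase that releases arachidonic acid (chromosome 1, 149829618 to 149961290, minus strand), had a level of 0.0264 and 0.0248 in Psat1KO, against 0.0329 and 0.0230 in CTRL. The groups overlapped, and the sets went opposite ways, with ratios of 0.802 and 1.08. Ptges, the microsomal synthase that makes prostaglandin E2 downstream of Ptgs2 (chromosome 2, 30889471 to 30931020, minus strand), had 0.0134 and 0.0161 in Psat1KO, against 0.0163 and 0.0171 in CTRL. Both Psat1KO levels lay below both CTRL levels, with ratios of 0.824 and 0.944 (95% intervals 0.513 to 1.32 and 0.728 to 1.24). Ptgir, the prostacyclin receptor (chromosome 7, 16906490 to 16910905, plus strand), had 0.0608 and 0.0318 in Psat1KO, against 0.0347 and 0.0335 in CTRL. Its Psat1KO value of set 1 was the highest of all UP genes in that library and stood apart from the other 3 values, so the ratios were 1.75 and 0.9501. As at Ptgs2 and S1pr3, the Ptgir ratio was larger in set 1, while in set 2 the 6 genes lay between 0.944 and 1.10.

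By the smallest root mean square difference of log2 level over the 4 libraries, the UP genes most like Ptgs2 were Pcdh19, a protocadherin gene (difference 0.36), and Fgf2, a growth factor gene (0.38). Pcdh19 had levels of 0.0183 and 0.0169 in Psat1KO, against 0.00777 and 0.0136 in CTRL, with ratios of 2.35 and 1.24. Its lowest value was in the CTRL library of set 1, which a choice by similarity to Ptgs2 favours. Fgf2 had 0.0199 and 0.0166 in Psat1KO, against 0.0114 and 0.0175 in CTRL, with ratios of 1.75 and 0.948. Alox5 was closest to Flywch2 (0.09) and the Wnt ligand gene Wnt5a (0.13), and S1pr3 to Rcn3, a reticulocalbin gene (0.16), and Ripk3, a kinase of necroptosis (0.20). Among the 217 candidates, the gene nearest to Alox5 was thus closer to it than the gene nearest to Ptgs2 was to Ptgs2.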

How the data were processed

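Of 8 samples, the 4 immunoprecipitated libraries were analysed. The authors deposited binned coverage signal for each gene, in 2 tables with a block per genotype and gene group; each library was taken from its block heading and table number. The submitters' processing notes name Bowtie 1.3.1, MACS 1.4.2, Trim Galore 0.6.7 and mm10, with no roles. What window the bins span, how values were scaled and what made a gene UP or DOWN is not stated in the labels or headers. The signal was taken as not corrected for input and scaled to 1000000 reads; 73.7% to 85.1% of low values lay within 1% of a whole number of steps. Read positions are the sum over bins of signal divided by the step. Genes were matched to RefSeq (GRCm38.p6) by symbol, and lengths are those of the whole annotated gene. For the 3 members and the other pathway genes described, the transcript was checked to belong to that gene. Limma 3.58.1 (R 4.3.3) was run on log2(level + 0.005) without covariates, after testing on simulated data; its p-values rest on the spread of these libraries alone, possibly a technical one. Members and lists were chosen with earlier results of these data known. Named were the 3 members, list members in the tables, and for each member the 2 UP genes nearest in level. Alternatives were the pseudocount, a low-level filter, scaling to the median UP gene, a limit on bins, the highest bin removed, a replicate block and leaving out each library.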

Additional observations from a re-analysis of the deposited data

How the results depend on the processing

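The log2 ratio of Psat1KO to CTRL was 0.63 at Ptgs2, 0.14 at Alox5 and 0.47 at S1pr3. Leaving out a library gave -0.05 to 1.32 at Ptgs2, -0.02 to 0.31 at Alox5 and 0.26 to 0.67 at S1pr3. The lowest value was always without CTRL replicate 1, where Ptgs2 (-0.05) and Alox5 (-0.02) turned direction, and the highest without CTRL replicate 2. A pseudocount, bins limited to 0.5, scaling to the median UP gene, the highest bin removed and the ratio of group means kept the direction at all 3 genes. The values ranged from 0.45 to 0.69 at Ptgs2, 0.08 to 0.19 at Alox5 and 0.40 to 0.52 at S1pr3. The SD of the 2 within-set values was 0.69 at Ptgs2, 0.13 at Alox5 and 0.47 at S1pr3. With all libraries kept, the moves were smaller than that SD, a weak bar because it is about as large as the log2 ratio itself. Leaving out a CTRL library moved Alox5 from 0.14 to -0.02 or 0.31, by more than its SD of 0.13. The median over bins gave no ratio over both sets, because it was at or near 0 in set 1 (at most 0.000873); in set 2 it was 0.0143 in Psat1KO and 0.0143 in CTRL at both Alox5 and S1pr3, and at Ptgs2 it was 0.0143 in Psat1KO and near 0 in CTRL. Limma called 0 genes in every setting, including a pseudocount of 1 or 0.001, a minimum level of 0.005 and, chosen after seeing the data, the UP genes alone. With the replicate number as a block it also called 0 genes, with 13 at an unadjusted p under 0.05; deviations of equal numbers correlated with an r of 0.22 over the 220 UP genes and 0.73 over the 53 DOWN genes, whose profiles had a median r of 0.02 between the sets, and the labels do not state a pairing. Of the 3 genes in the 4 libraries, Ptgs2 in CTRL replicate 1 had the fewest read positions, 18.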

Other observations

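The prostaglandin transporter gene Slco2a1, which was on no list and was named after the tables were seen, is a further UP gene of prostaglandin biology. Its 5hmC level was 0.0378 and 0.0267 in Psat1KO (sets 1 and 2), against 0.0276 and 0.0281 in CTRL. The groups overlapped, and the ratios of 1.37 in set 1 and 0.9499 in set 2 lay on opposite sides of 1, as at Ptgir.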
